A study of Mus musculus with 6 samples.

Results

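The leukocyte integrin genes described here are Itgam, Itgax, Itgal, Itgb2, Itga4, Itga5, Itgav, Itgb1, Itgb3 and Itgb7. Their members are all probe sets that map to 1 of these genes only, 28 of the 45037 probe sets on the array and 10 of its 18193 named genes. Each of the 6 samples is RNA of mouse macrophages on an Affymetrix array of its own, with 1 dye. Trib1 knockout macrophages of the Trib1 line given lipopolysaccharide (LPS, a bacterial cell wall component) have 2 arrays, called knockout 1 and 2, and wild-type macrophages of that line given LPS have 2, called wild type 1 and 2. Wild-type macrophages given LPS (1 array) or medium alone (1 array) form a separate pair, which the series uses to define LPS-inducible genes and which is called the LPS pair. Trib1 line is a name used here for the arrays titled Trib1, and how their mice relate to those of the pair is not labelled. No macrophage source, allele, strain, age, dose or time is labelled, and whether the arrays of 1 genotype are separate animals is not stated, so p-values cover the spread between these samples, which may be technical.

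Integrins are adhesion receptors of the cell surface, each made of 1 alpha and 1 beta subunit. On leukocytes the beta2 subunit, CD18 (Itgb2), pairs with the alpha subunits CD11a (Itgal), CD11b (Itgam) and CD11c (Itgax), and the pairs bind ICAM adhesion molecules, complement fragments and fibrinogen. The alpha4 subunit (Itga4) pairs with beta1 (Itgb1) or beta7 (Itgb7) and binds VCAM-1, fibronectin or MAdCAM-1, while alpha5 with beta1 is the main fibronectin receptor and alphaV (Itgav) pairs with beta3 (Itgb3) and others to bind vitronectin and activate latent TGF-beta. CD11b is a standard marker of macrophages, neutrophils and monocytes, and CD11c of dendritic cells and some tissue macrophages.

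The promoters of the genes on either side of the genotype comparison below are shown first, because Itgam and Itgax, direct neighbours on chromosome 7 with 0 protein-coding genes between them, lay on opposite sides, as did Itgb7 and its partner gene Itga4. Each run holds 250 bases before and 50 after a start site, in the RefSeq table of build GRCm38.p6, which held 7 of the 10 genes. Capitals mark the core of the PU.1 motif, GAGGAA, and a loose C/EBP motif, TTNNGNAA, on either strand. PU.1 is the transcription factor known to drive Itgam and Itgb2 in myeloid cells, and C/EBP factors are the proteins that Trib1 brings to a ubiquitin ligase.
Itgam (chr7:128062390-128062689, plus strand): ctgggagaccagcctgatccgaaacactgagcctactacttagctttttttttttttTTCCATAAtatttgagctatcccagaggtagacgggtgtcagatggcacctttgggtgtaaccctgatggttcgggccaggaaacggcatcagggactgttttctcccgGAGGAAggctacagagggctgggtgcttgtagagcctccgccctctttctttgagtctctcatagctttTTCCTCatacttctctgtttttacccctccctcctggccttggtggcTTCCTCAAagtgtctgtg
Itgax (chr7:128129300-128129599, plus strand): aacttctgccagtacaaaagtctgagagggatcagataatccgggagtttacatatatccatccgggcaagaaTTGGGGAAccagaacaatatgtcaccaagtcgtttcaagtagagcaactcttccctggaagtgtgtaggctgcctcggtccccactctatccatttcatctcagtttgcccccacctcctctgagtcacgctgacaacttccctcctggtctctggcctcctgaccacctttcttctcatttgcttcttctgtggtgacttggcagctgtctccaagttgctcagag
Itgb7 (chr15:102231886-102232185, minus strand): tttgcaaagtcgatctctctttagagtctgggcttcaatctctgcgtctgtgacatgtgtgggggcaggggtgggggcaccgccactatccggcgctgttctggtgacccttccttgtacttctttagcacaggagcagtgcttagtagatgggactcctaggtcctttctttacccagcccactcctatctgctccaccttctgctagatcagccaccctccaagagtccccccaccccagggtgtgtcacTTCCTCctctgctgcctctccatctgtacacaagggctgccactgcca
Itga4 (chr2:79255176-79255475, plus strand): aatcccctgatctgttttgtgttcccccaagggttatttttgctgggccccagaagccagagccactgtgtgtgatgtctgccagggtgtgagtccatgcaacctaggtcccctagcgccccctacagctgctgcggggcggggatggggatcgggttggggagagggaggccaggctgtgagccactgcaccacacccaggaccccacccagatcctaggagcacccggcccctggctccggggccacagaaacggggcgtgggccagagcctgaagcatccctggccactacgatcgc

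The Itgam run holds 3 matches to the PU.1 core, at positions -84, -15 and 32 from the start site, and 2 to the C/EBP motif, at -193 and 32, the last overlapping the PU.1 core there. Itgax holds 1 C/EBP match, at -177, and 0 of the PU.1 core. Itgb7 holds 1 PU.1 core, at position 2, and Itga4 holds 0 of either. Among the 7 genes, 5 hold the PU.1 core and 3 the C/EBP motif. Of all 32851 promoters in the table, 28.3% hold the PU.1 core and 40.7% the C/EBP motif, so either motif is common in windows of this length.

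Values are MAS5 intensities scaled to a common trimmed mean of 234. The floor, the pooled 40th percentile of the 6 arrays, was 29.9, and lower values were set to it before log2 was taken. As deposited, that mean was 500.0 for both LPS-pair arrays and between 95.5 and 107 for the Trib1 line. Each array had from 57.9% to 63.0% of its probe sets above the floor. Precision is limited by how few arrays there are. The targeted gene, Trib1, gave 88.1 and 20.9 on the knockout-labelled arrays and 17.9 and 17.5 on the wild-type arrays of its line for probe set 1424880_at, and 32.3 and 38.7 against 20.2 and 63.0 for 1424881_at. On the LPS pair, 1424880_at gave 189.3 with LPS and 383.5 in medium, and 1424881_at 29.3 and 37.1. On 1424880_at both wild-type arrays of the Trib1 line thus lay under the floor, unlike the wild types of the LPS pair, and knockout 1 was the highest array of the line. Where these probes lie relative to the deletion is not given, so Trib1 does not check the labels, and every genotype direction rests on them. Of the macrophage markers Csf1r, Adgre1 and Cd68, the lowest value on any array was 6177 (Csf1r on wild type 1). Others of the 10 macrophage markers listed were dimmer, Mrc1 among them. Mrc1 measured 428.6 and 280 on the knockout-labelled arrays and 667.3 and 285.5 on the wild-type arrays of the line. On the LPS pair it measured 3503 with LPS and 5430 in medium.

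Of the 28 probe sets, 5 lay under the floor on all 6 arrays. These include both probe sets of Itgb3, the beta3 subunit, which measured between 4.47 and 21.2 on the knockout-labelled arrays, between 4.97 and 9.58 on the wild-type arrays of the line, 6.82 and 24.4 on the pair's LPS array and 10.5 and 3.97 in medium. No level or difference can be given for Itgb3. The other 3 are 1 probe set each of Itga4, Itgav and Itgb1. Further dim probe sets of Itgav (1432679_at, at most 36.0 on any array) and Itgb1 (1426919_at, at most 30.8) passed the floor on 2 and 1 of the 6 arrays. Genotypes were compared on the 21 probe sets of 9 genes that exceeded the floor on 2 or more of the 4 Trib1-line arrays.

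**Figure D1:**
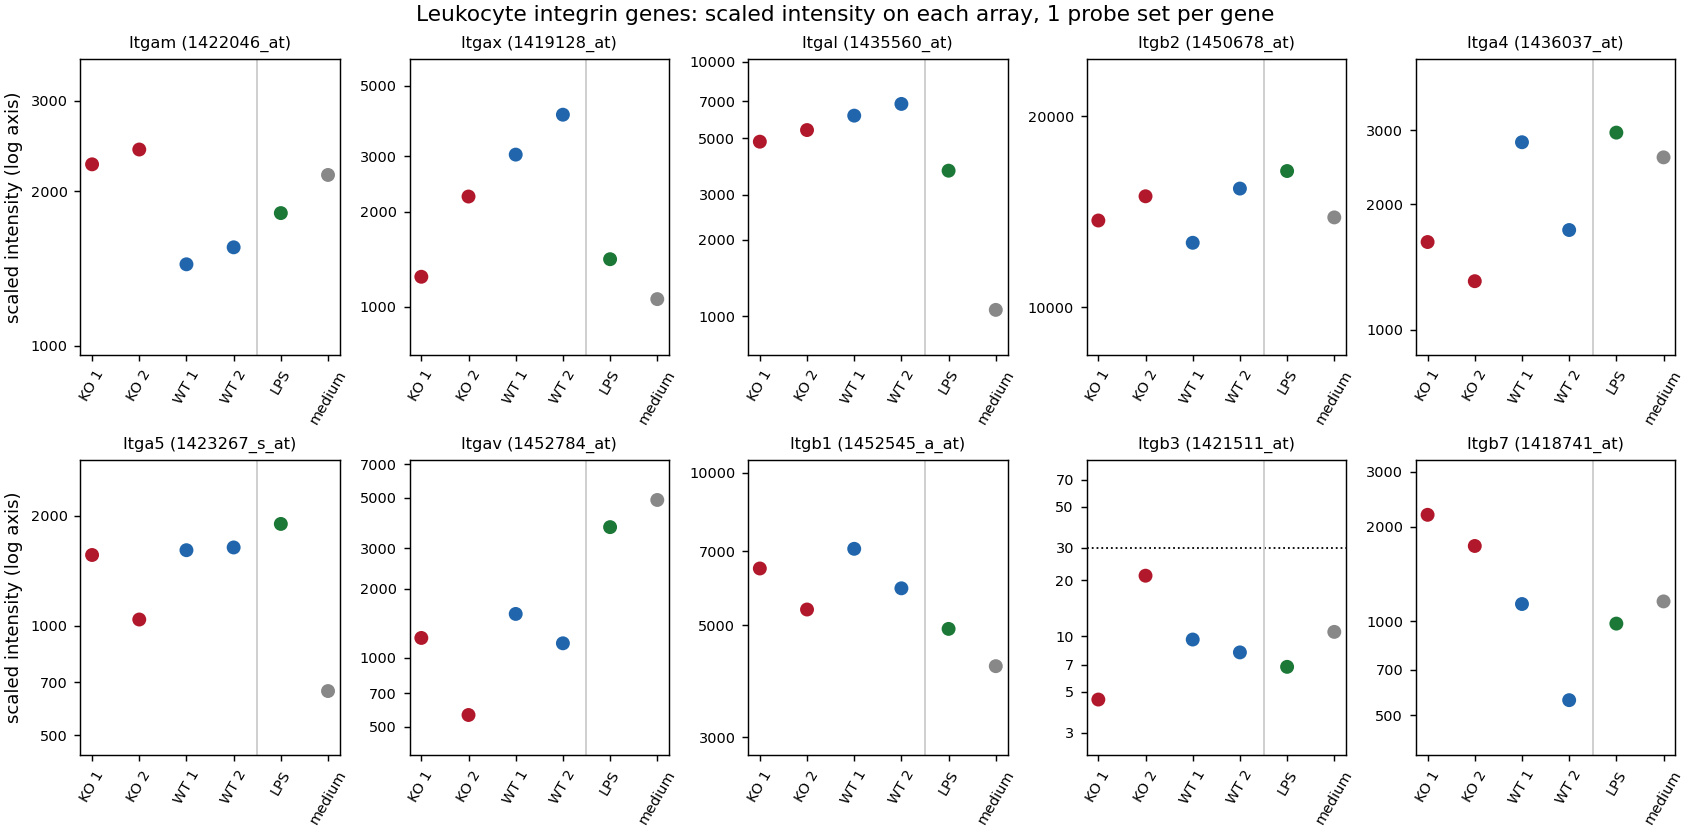
Scaled intensity (log axis, a range of its own in each panel) of the 10 genes on each array, each by its brightest probe set on average. Red points are the knockout-labelled arrays (KO), blue the wild-type arrays of the Trib1 line (WT), green the LPS array and grey the medium array of that pair; the dotted line in the Itgb3 panel is the floor of 29.9. Itgam and Itgb7 were higher on both knockout-labelled arrays than on both wild-type arrays of the line, and Itgax, Itgal, Itga4 and Itga5 were lower.

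The first comparison asks which integrin genes differed with Trib1 after LPS. Itgb7 and Itgam measured higher on both knockout-labelled arrays than on both wild-type arrays of the line, by 2.45 and 1.56-fold, and Itgax and Itga4 measured between 1.52 and 2.10-fold lower. None of these differences passed the test over all probe sets. Limma with Benjamini-Hochberg adjustment over the 29078 probe sets tested called 0 member probe sets higher and 0 lower, and 0.0% of all probe sets in either direction. At an unadjusted p under 0.05 it gave 2 member probe sets higher and 4 lower, beside 2.28% and 2.71% of all tested. The 2 higher were Itgam and Itgb7. The 4 lower were that of Itgax and, for the single gene Itga4, 1421194_at, 1450155_at and 1456498_at, without its brightest probe set. With 2 arrays in each genotype, the smallest two-sided p of an exact permutation test is 0.333.

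Among the beta2 family, Itgam, the CD11b subunit of the complement receptor Mac-1, measured 2256 and 2411 on the knockout-labelled arrays, against 1441 and 1555 on the wild-type arrays of the line. The groups did not overlap. The difference in log2 was 0.64 (SE 0.16, 95% interval 0.23 to 1.05, n = 2 for each genotype; adjusted p = 0.899 by limma with Benjamini-Hochberg). The arrays of the LPS pair, both wild type, measured 1813 with LPS and 2151 in medium, between the genotypes.

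Itgax, the CD11c subunit, measured 1244 and 2233 on the knockout-labelled arrays, against 3031 and 4055 on the wild-type arrays. Every knockout-labelled value lay below every wild-type value of the line, although as a ratio the knockout-labelled arrays themselves differed by more than the wild-type arrays did. The log2 difference was -1.07 (SE 0.32, 95% interval -1.87 to -0.28; limma adjusted p = 0.950). The pair's wild-type LPS array, at 1414, lay among the knockout-labelled values, and with it added as a wild type the difference was -0.64. It was -0.65 without knockout 1.

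Because Itgam and Itgax lay on opposite sides, their ratio within each array was also taken, after their values were seen, and it does not depend on the scaling of the array. Itgam over Itgax in scaled intensity was 1.81 and 1.08 on the knockout-labelled arrays, against 0.476 and 0.383 on the wild-type arrays of the line. The lower knockout-labelled ratio was 2.27 times the higher wild-type one. On the LPS pair the ratio was 1.28 with LPS and 2.04 in medium, so wild-type arrays outside the line reached the knockout-labelled range.

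Itgal, the CD11a subunit of LFA-1, a receptor for ICAM-1, has 2 probe sets, both lower on the knockout-labelled arrays by small amounts. On 1435560_at the values were 4851 and 5389 on the knockout-labelled arrays and 6139 and 6825 on the wild-type arrays, a log2 difference of -0.34 (SE 0.17, 95% interval -0.75 to 0.07). On 1425367_at they were 3315 and 3514 against 4131 and 4283, a log2 difference of -0.30 (SE 0.16). Adjusted p was 0.999 for both by limma, and with the pair's LPS array added as a wild type the differences were -0.08 and 0.03.

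Itgb2, the beta subunit that Itgam, Itgax and Itgal share, measured 13701 and 14957 on the knockout-labelled arrays, against 12639 and 15381 on the wild-type arrays. The wild-type values enclose the knockout-labelled ones. Its log2 difference was 0.04, with a 95% interval of -0.42 to 0.49, and a difference inside that interval cannot be told from none with these arrays.

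Among the beta1 and beta7 family, Itga4 gave the lower values on all 4 of its probe sets above the floor. On 1436037_at, the brightest, the knockout-labelled arrays measured 1622 and 1307, against 2812 and 1733 on the wild-type arrays, a log2 difference of -0.60 (SE 0.28, 95% interval -1.29 to 0.09; limma adjusted p = 0.999). On 1450155_at they measured 500.5 and 489.2 against 976.1 and 915.2, a log2 difference of -0.93 (SE 0.18, adjusted p = 0.818), the smallest p among the members at 0.00268 unadjusted (limma). The genotypes were separate on all 4, but the 4 probe sets read the same RNA and are not independent replicates.

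The other Itga4 probe sets were 1456498_at, at 985.2 and 740.5 on the knockout-labelled arrays against 1945 and 1486 on the wild-type arrays (log2 -0.99, SE 0.24), and 1421194_at, at 429.7 and 331.2 against 778.3 and 513.9 (log2 -0.75, SE 0.29). The 4 probe sets disagreed on where the pair's wild-type LPS array falls. It measured 2965 on 1436037_at, above both wild-type arrays of the line, and 491.4 on 1456498_at, below both knockout-labelled arrays. With that array added as a wild type, the differences were -0.74 on 1436037_at and -0.40 on 1456498_at, and without wild type 1 the first was -0.25.

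Itgb7, the beta subunit of the alpha4beta7 and alphaEbeta7 integrins, had the largest difference of the 21 probe sets. It measured 2183 and 1736 on the knockout-labelled arrays, against 1133 and 558.8 on the wild-type arrays. The groups did not overlap. The wild-type arrays themselves were unequal, and the difference was 0.78 in log2 without wild type 2 and 1.80 without wild type 1. With all 4 arrays the log2 difference was 1.29 (SE 0.36, 95% interval 0.40 to 2.18; limma adjusted p = 0.909). The LPS pair measured 981.0 with LPS and 1155 in medium, within or close to the wild-type range of the line.

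Itgb7 over Itga4 within each array, a ratio also chosen after the values were seen, was 1.35 and 1.33 on the knockout-labelled arrays, against 0.403 and 0.323 on the wild-type arrays of the line. The LPS pair gave 0.331 with LPS and 0.446 in medium. The lower knockout-labelled ratio was 3.29 times the higher wild-type ratio of the line. That holds for Itga4 1436037_at, and with the other Itga4 probe sets the same figure was between 3.06 and 3.80. Where the LPS pair fell depended on the probe set. With 1456498_at the ratio was 2.22 and 2.34 on the knockout-labelled arrays against 0.583 and 0.376 on the wild-type arrays of the line, while the LPS pair gave 2.00 with LPS and 1.40 in medium, between the genotypes of the line. Probe sets differ in brightness, so the ratio says how the genes differed between arrays, not which of them was more abundant.

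Itgb1, the widely expressed beta1 subunit, gave small differences. On 1452545_a_at the knockout-labelled arrays measured 6467 and 5366, against 7072 and 5909 on the wild-type arrays, with a log2 difference of -0.13 (95% interval -0.60 to 0.34). On 1426918_at they measured 4771 and 4239 against 5146 and 5412, a log2 difference of -0.23 (SE 0.16). The groups overlapped on the first and not on the second. A pair of dimmer probe sets, 1426920_x_at and 1427771_x_at, whose suffix marks probes that can bind other transcripts, gave -0.24 and 0.04.

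Itga5, the alpha subunit of the fibronectin receptor, measured 1561 and 1039 on the knockout-labelled arrays, against 1609 and 1637 on the wild-type arrays, on 1423267_s_at. The log2 difference of -0.35 (SE 0.24, 95% interval -0.94 to 0.24) came mostly from knockout 2, and was -0.06 without it. The other 3 Itga5 probe sets had overlapping genotypes, with log2 differences between -0.45 and 0.16.

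Itgav, the alphaV subunit, measured 1219 and 561.5 on the knockout-labelled arrays, against 1552 and 1155 on the wild-type arrays, on 1452784_at, and 200.7 and 125.8 against 258.8 and 279.9 on 1421198_at. The log2 differences were -0.69 (SE 0.39) and -0.76 (SE 0.33), both with a limma adjusted p of 0.999. Knockout 2 gave the lowest value on both, and without it the differences were -0.14 and -0.42. Another probe set, 1432296_a_at, had overlapping genotypes (log2 -0.02).

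**Figure D2:**
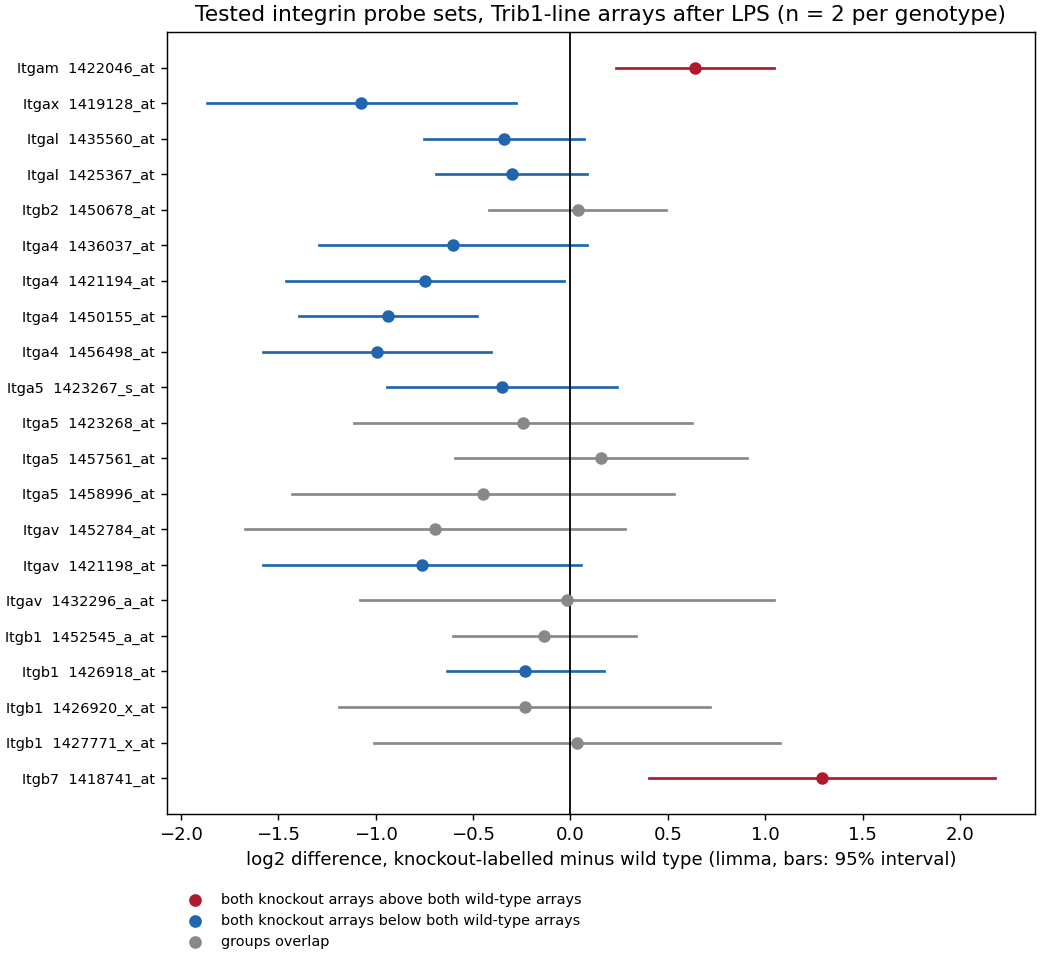
Log2 difference of the knockout-labelled minus the wild-type Trib1-line arrays for the 21 tested integrin probe sets (points), with limma's 95% interval (bars; n = 2 per genotype). Red and blue mark probe sets whose genotypes did not overlap; the 2 red ones are Itgam and Itgb7, and 10 are blue.

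Over the 21 tested probe sets, both knockout-labelled arrays lay above both wild-type arrays on 2 (Itgam and Itgb7) and below both on 10, beside 15.4% and 16.3% of all probe sets tested. The difference was below 0 on 16 of the 21, beside 50.7% of all. The median log2 difference was -0.30, beside -0.005 over all tested. By gene, with 1 probe set each, 2 of 9 lay above and 4 below (Itgax, Itgal, Itga4 and Itga5), beside 16.9% and 15.7% of all genes tested. Probe sets of 1 gene repeat the same RNA, and the members were chosen with results of these data known, so these counts describe the list and carry no test.

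**Figure D3:**
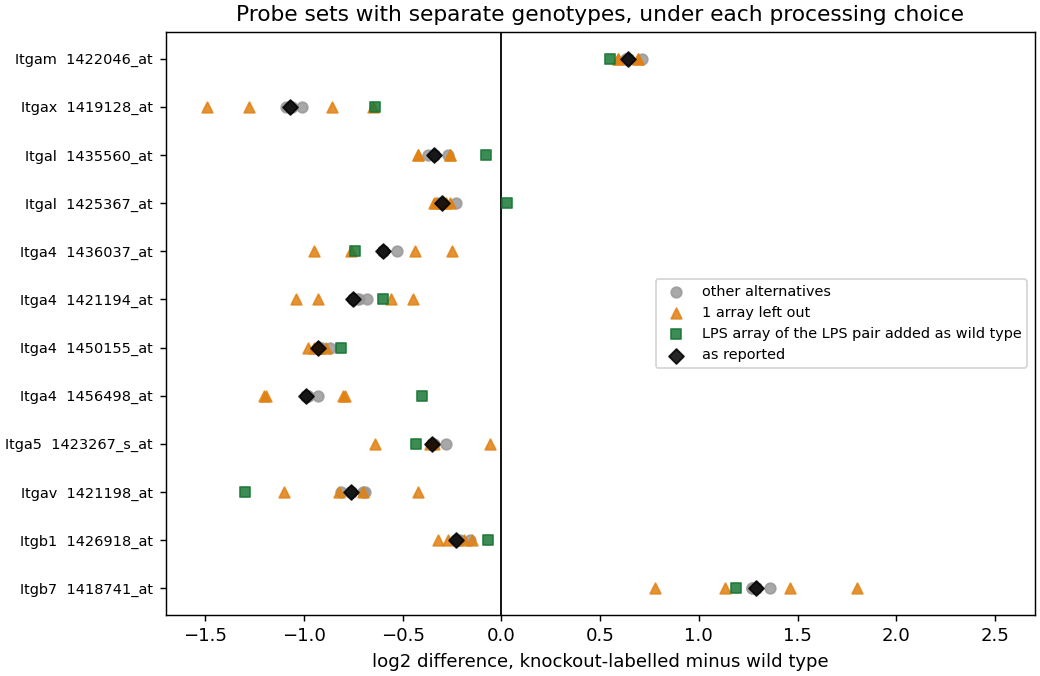
Log2 difference of the knockout-labelled minus the wild-type Trib1-line arrays for the 12 integrin probe sets with separate genotypes, as reported (black) and under each other processing choice (grey), with 1 array left out (orange) and with the pair's LPS array added as a wild type (green). Itgam and Itgb7 stayed above 0 under all of them, and Itgal 1425367_at crossed 0 with the added array. These probe sets were picked for their separate genotypes, so leaving out 1 array cannot turn their sign, and an unchanged sign there is no support.

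The markers of other cell types were counted in the same way, and of all genes tested 16.9% lay higher and 15.7% lower on both knockout-labelled arrays. With fewer cells of a type, or less RNA per cell, a bulk sample gives the same values. Over 9 neutrophil markers, a cell type rich in CD11b, the summed scaled intensity was 19036 and 8560 on the knockout-labelled arrays, against 1819 and 1732 on the wild-type arrays of the line. Of 8 tested, 4 were higher on both knockout-labelled arrays (S100a8, S100a9, Mmp8 and Camp), 1 was lower (Ltf), and 0 passed limma over all probe sets. S100a8, which macrophages can also make, measured 8853 and 7314 against 1251 and 1238, and S100a9, its partner, 6906 and 205.6 against values under the floor. Mmp8, neutrophil collagenase, measured 2587 and 713.6 against 212.1 and 121.8, and Camp, the cathelicidin gene, 219.9 and 66.9 against values under the floor. Knockout 1 was thus the highest array for each of these 4.

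Other granule genes went differently. Mpo measured 90.1 and 87.7 on the knockout-labelled arrays against 68.6 and 95.5 on the wild-type arrays, Elane 87.2 and 74.5 against 64.4 and 77.7, and Ltf 40.2 and 12.7 against 87.0 and 87.2. The neutrophil sum was mostly S100a8 and S100a9 on knockout 1 and mostly S100a8 on knockout 2. Itgam measured 2256 and 2411 on these arrays, and the part of neutrophils in it was not tested.

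Mast cells and eosinophils also carry Itgb7 and Itga4, and their 10 markers gave sums of 221.5 and 340.5 against 794.8 and 1171. Of 6 tested, 5 were lower on both knockout-labelled arrays, all of them mast cell genes (Cpa3, Tpsb2, Cma1, Fcer1a and Ms4a2). Prg2, an eosinophil gene, had overlapping genotypes (41.6 and 22.9 against 24.2 and 48.7). Mcpt4, Epx, Siglecf and Ccr3 were not tested. For 13 T and NK cell markers the sums were 710.9 and 826.8 against 2204 and 2265, and 3 of 8 tested were lower on both and 0 higher. Klrk1 alone, an NK cell receptor gene, measured 230.3 and 263.3 against 1671 and 1485, while Cd3e stayed between 27.9 and 38.6 on these arrays. For 8 dendritic cell markers, where CD11c is a marker too, the sums were 733.7 and 606.5 against 790.5 and 912.1, with 2 of 8 tested lower on both. Of all these marker lists, Cd4 and Ccr3 were the genes under the floor on all 6 arrays.

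For 9 B cell markers the sums were 1401 and 1999 on the knockout-labelled arrays against 1978 and 2722 on the wild-type arrays, with 5 of 9 lower on both, and for 13 mesothelial and stromal markers 14648 and 17146 against 7596 and 6683, mostly Pdpn, with 7 of 11 tested higher on both. Platelet markers, where Itgb3 is abundant, gave sums of 3359 and 2920 against 2955 and 3567, mostly Pf4, with 2 of 6 tested higher on both. The 10 macrophage markers summed to 98317 and 101141 against 84372 and 92179, with 4 of 10 higher on both knockout-labelled arrays (Adgre1, Cd14, Cd68 and Fcgr1) and 1 lower (Mertk). The transcription factor PU.1 (Spi1) measured 5659 and 4965 against 6196 and 5234, with overlapping genotypes. The part of any of these in the integrin values was not tested.

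The second comparison sets LPS against medium in wild-type macrophages, with 1 array each and therefore no test. Itgal and Itga5 were the integrin genes at least 2-fold above medium on all 3 wild-type LPS arrays, each on 2 probe sets. Of 21 member probe sets that exceeded the floor with LPS or in medium, 2 were at least 4-fold higher with LPS and 0 at least 4-fold lower, beside 0.986% and 0.598% of all probe sets. At 2-fold there were 5 higher and 0 lower, beside 5.02% and 6.29%. The median log2 ratio over the 21 was 0.24, beside -0.09 over all probe sets above the floor.

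Itgal measured 2127 with LPS and 529.2 in medium on 1425367_at (4.02-fold), and 3732 and 1060 on 1435560_at (3.52-fold). The wild-type LPS arrays of the Trib1 line were higher still, 7.81 and 8.09-fold above the same medium array on the first probe set and 5.79 and 6.44-fold on the second. Limma of the 3 wild-type LPS arrays against the medium array gave log2 differences of 2.66 (SE 0.44) and 2.35 (SE 0.39), with Benjamini-Hochberg adjusted p = 0.0932 and 0.0966, which miss 0.05. That fit called 0 member probe sets in either direction, beside 0.158% of all probe sets higher and 0.0106% lower. In that fit the lone medium array is assumed to vary like the others. Of the LPS arrays, 2 are titled Trib1 and the medium array is not, and how their mice relate is not labelled.

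Itgal is a lymphocyte integrin too, and some lymphocyte markers also differed within the LPS pair. Over 9 B cell markers the summed scaled intensity was 9377 with LPS and 3922 in medium, with Ighm alone at 6036 and 1637. On the wild-type LPS arrays of the Trib1 line that sum was 1978 and 2722, below medium. Within the pair, 3 of 9 were at least 2-fold higher, beside 5.44% of all genes: Ighm (3.69-fold), Ms4a1 (2.46-fold) and Vpreb3 (2.285-fold). The other B cell markers lay between 0.889-fold (Cd22) and 1.895-fold (Cd79a). Over 13 T and NK cell markers the sum was 1639 with LPS and 1177 in medium. Of 12, 4 were at least 2-fold higher, the granzyme genes Gzmb (6.22-fold) and Gzma (4.20-fold), Nkg7 (2.95-fold) and Cd2 (2.24-fold). The others of the 12 lay between 0.868-fold (Cd3e) and 1.99-fold (Cd3g). The wild types of the line gave sums of 2204 and 2265, mostly from Klrk1 alone (1671 and 1485). Klrk1 measured 619.7 with LPS and 696.1 in medium. The part of these cells in the Itgal values was not tested.

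Itga5 measured 1899 with LPS and 661.6 in medium on 1423267_s_at (2.87-fold), and 1080 and 415.2 on 1423268_at (2.602-fold). The Trib1-line wild-type arrays gave 2.43 and 2.47-fold on the first, so all 3 LPS arrays lay at more than 2-fold. The 2 probe sets of Itgal and these 2 of Itga5 were the 4 member probe sets at least 2-fold above medium on all 3 arrays, beside 1.94% of all probe sets, and 0 were at least 2-fold below on all 3, beside 2.17%. Another Itga5 probe set, 1458996_at, gave 214.3 with LPS and 44.4 in medium (4.83-fold), but 52.1 and 62.3 on the Trib1-line wild types.

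Itgax and Itgav differed between the LPS pair and the Trib1 line. Itgax measured 1414 with LPS and 1057 in medium within the pair (1.34-fold), while the Trib1-line wild-type arrays lay 2.87 and 3.84-fold above that medium array. Itgav measured 3717 with LPS and 4884 in medium on 1452784_at, and the Trib1-line wild-type arrays lay 3.15 and 4.23-fold below medium. On its probe set 1421198_at the pair gave 823.0 with LPS and 798.3 in medium, and the same arrays of the line gave 258.8 and 279.9. In the ratios of Trib1-line arrays to the medium array, set of arrays (pair or Trib1 line), scale of deposition and treatment differ together and cannot be told apart. The pair's LPS array and the Trib1-line wild types were all given LPS, at a dose and time not labelled. Between them set of arrays and scale of deposition differ together.

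The remaining members stayed within 2-fold of medium on the LPS array. Itgb2 measured 16390 with LPS and 13856 in medium, Itgb1 4913 and 4147 on 1452545_a_at, Itgam 1813 and 2151, and Itgb7 981.0 and 1155. Itga4 measured 2965 and 2587 on 1436037_at, and its probe sets ran from a log2 ratio of -0.75 to 0.32. Of these genes, Itgam was below medium on all 3 wild-type LPS arrays and Itgb1 above it on its 2 brightest probe sets, all by less than 2-fold. Itgb7 was also below medium on all 3, by 1.18-fold on the LPS array of the pair and by 1.02 and 2.07-fold on wild type 1 and 2.

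**Figure D4:**
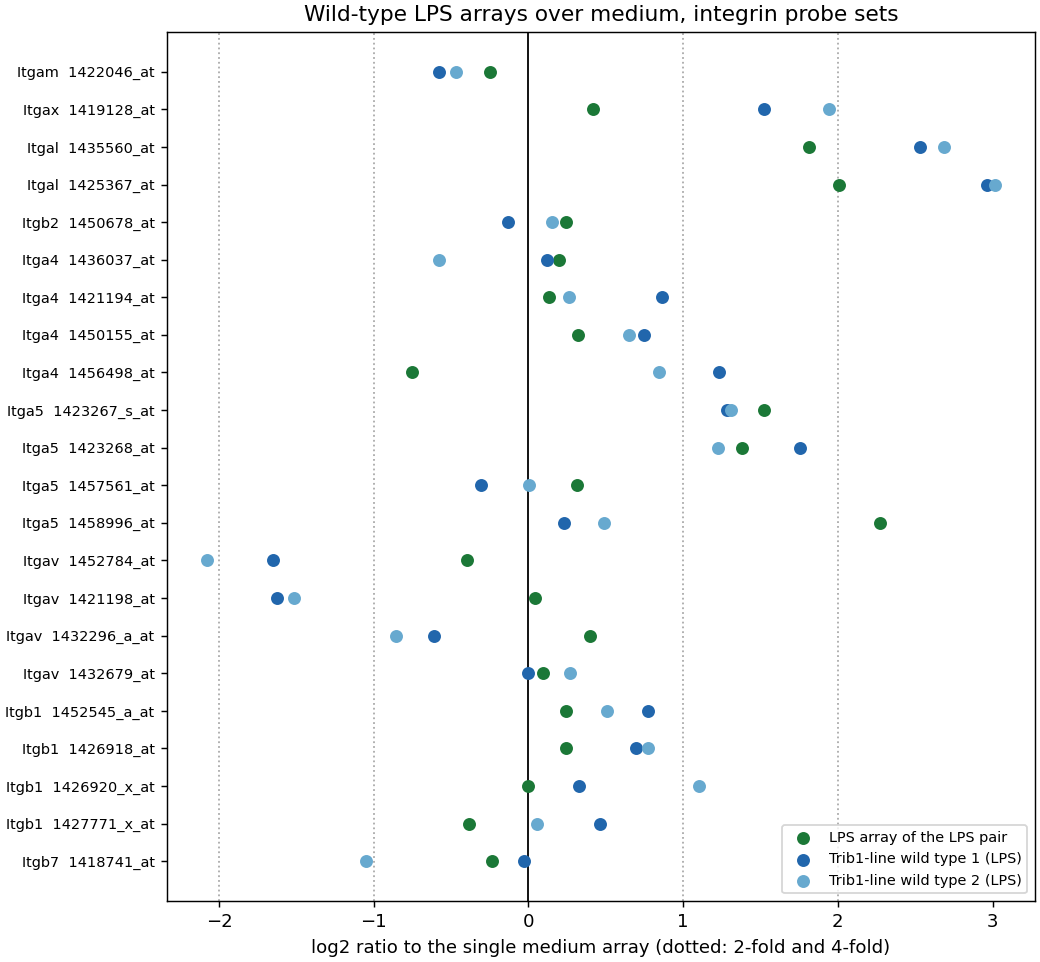
Log2 ratio to the single medium array of the pair's LPS array (green) and of wild type 1 and 2 of the Trib1 line (dark and light blue), all given LPS, for the 22 integrin probe sets that exceeded the floor on 2 or more of the 6 arrays. Dotted lines mark 2-fold and 4-fold; all points of Itgal lie between 3.52 and 8.09-fold, and on 3 of the 4 Itgav probe sets both blue points lie left of the green one.

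Other genes of integrin biology were counted from lists of known subunits, ligands and signalling proteins. Of 17 other integrin subunit genes, 13 were tested between genotypes and 0 passed limma over all probe sets. Both knockout-labelled arrays lay above both wild-type arrays for 0 of the 13 and below for 1, beside 16.9% and 15.7% of all genes. The gene below was Itgae, the alphaE partner of beta7, at 31.7 and 29.2 against 33.2 and 59.4, close to the floor. With LPS in the LPS pair 0 reached 4-fold, and at 2-fold 1 of 13 was higher and 2 lower, beside 5.44% and 6.72% of all genes. Itga1, a collagen receptor subunit, measured 87.2 with LPS and 12.3, under the floor, in medium (at least 2.92-fold higher). Itga6, a laminin receptor subunit, measured 895.5 with LPS and 1968 in medium, and Itgb5, another partner of alphaV, 892.6 and 1888.

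Of 24 genes for ligands of these integrins, 17 were tested, 0 passed, 1 had both knockout-labelled arrays above (5.88%) and 3 below (17.6%), beside 16.9% and 15.7% of all genes, with a median log2 difference of -0.16, beside 0.01 over all genes. F11r, the junctional adhesion molecule JAM-A that binds LFA-1, measured 228.6 and 279.2 on the knockout-labelled arrays against 62.4 and 128.2 on the wild-type arrays (limma adjusted p = 0.929). Icam1, the main ligand of LFA-1 and Mac-1, measured 11414 and 11693 against 14842 and 15258 (log2 -0.38, adjusted p = 0.999), and Madcam1, the ligand of alpha4beta7, 31.5 and 58.6 against 76.8 and 77.7. With LPS, Vcam1, the ligand of alpha4beta1, measured 6029, against 1467 in medium. It was the 1 ligand gene of 16 at least 4-fold higher, and 0 were 4-fold lower, beside 1.21% and 0.672% of all genes. At 2-fold, 2 were higher and 0 lower, beside 5.44% and 6.72%.

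Of 50 genes for integrin activation and signalling, 43 were tested, 0 passed, 9 lay above (20.9%) and 7 below (16.3%), near the 16.9% and 15.7% of all genes, with a median log2 difference of 0.00. Fermt3, kindlin-3, which activates leukocyte integrins by binding their beta tails, measured 3550 and 3403 on the knockout-labelled arrays against 2891 and 2490 on the wild-type arrays (log2 0.37; limma adjusted p = 0.999). Actn4, an actin crosslinker, measured 1998 and 2098 against 1495 and 1604, and Skap1, an adaptor of T cells, 24.99 and 38.6 against 58.3 and 71.6. Talin (Tln1), which also binds beta tails, measured 1993 and 2244 against 2453 and 2289, a small difference with separate groups.

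With LPS, 3 of the 43 activation and signalling genes reached 4-fold in the LPS pair and 0 were 4-fold lower, beside 1.21% and 0.672% of all genes. Src, a tyrosine kinase of integrin signalling, measured 795.4 with LPS and 108.5 in medium. Apbb1ip, the RIAM protein that links Rap1 to talin, measured 1035 and 224.0, and Actn1, an actin crosslinker of adhesions, 3506 and 816.2. Among wild types of the Trib1 line Src measured 1210 and 1160 and Actn1 3260 and 5086, and Apbb1ip 515.4 and 448.6, all above medium.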

How the data were processed

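RNA of 6 macrophage samples was hybridised to Affymetrix arrays. The authors deposited a linear intensity per probe set, from MAS5 per the submitters' processing notes. Its version and scaling target are not given in the sources used here. Of the probe sets, 64 controls were left out. Genes come from GEO's platform annotation, and 34945 probe sets list 1 gene, 932 several and 9160 none.

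Each array was scaled to a common mean without its lowest and highest 2%, floored and put on a log2 scale. For genotypes, limma 3.58.1 (R 4.3.3; lmFit, eBayes with trend, 2 residual and 3.68 prior degrees of freedom) gave two-sided tests of probe sets exceeding the floor on 2 or more of the 4 Trib1-line arrays, with Benjamini-Hochberg adjustment over all of them and a threshold of 0.05. The fit was run on simulated arrays with planted changes larger than that of any member and a smaller spread. That run does not measure its power for these data. LPS ratios took 4-fold and 2-fold rules, with the higher value above the floor. A gene stands by its probe set with the highest mean. All member probe sets were described. From the other lists, genes past the rule were named, or else up to 3 with the smallest p and separate genotypes, or those past 2-fold with LPS. Tln1, Spi1, Klrk1, Cd3e, S100a8, S100a9, Cd14, Fcgr1, Mertk, Ighm, Ms4a1, Gzma, Gzmb, Cd4, Ccr3, Mmp8, Camp, Ltf, Mpo, Elane, Pdpn, Pf4, Csf1r, Adgre1 and Cd68 were named after their values were seen. So were Mrc1, Vpreb3, Nkg7, Cd2, Cpa3, Tpsb2, Cma1, Fcer1a, Ms4a2, Prg2, Mcpt4, Epx and Siglecf. The members and lists were chosen with earlier results of these data known. The listed genes that matched no single-gene probe set were not analysed here.

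The alternatives were the deposited scale, quantile normalization, a floor at the 25th or at the 60th percentile, adding 16 before log2, looser filters, a prior without trend, 1 probe set per gene, the label number as a block, each array left out, the LPS-pair LPS array as a wild type, 2-fold and 8-fold rules, and each Trib1-line wild type in place of the LPS array. Figures were drawn with Python 3.11.15 and matplotlib 3.10.9.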

Additional observations from a re-analysis of the deposited data

How the results depend on the processing

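No member was called between genotypes under any alternative except the replicate block (the label number as a block), which called 0 member probe sets higher and 2 lower, Itgax (adjusted p = 0.0408) and Itga4 1456498_at (0.0372), and 85 higher (0.292%) and 31 lower (0.107%) of all. The labels do not say what the numbers mark. Over 29078 probe sets, knockout 1 minus knockout 2 correlated with wild type 1 minus wild type 2 at r = 0.35, a description of 2 pairs that does not show pairing. Leaving out 1 array gave between 5 and 36 higher and between 0 and 32 lower of all probe sets, and 0 members. Of 300 alternative values for member probe sets, 285 kept their sign and side of the threshold and 13 turned sign, for probe sets whose reported difference was between -0.30 and 0.16: with the added LPS array Itgal 1425367_at (0.03) and Itgb2 (-0.04); as deposited Itgav 1432296_a_at (0.05); and over the fits with 1 array left out Itgb2 (-0.10 to 0.18), Itga5 1423268_at (-0.69 to 0.20) and 1457561_at (-0.10 to 0.41), Itgav 1432296_a_at (-0.45 to 0.41), Itgb1 1426920_x_at (-0.62 to 0.15) and 1427771_x_at (-0.55 to 0.62). For LPS, the 2 members past 4-fold became 1 with the floor at the 60th percentile, 0 with log2 of the value plus 16, 5 under the 2-fold rule, 0 under the 8-fold rule and 0 called by limma on 3 LPS arrays; with wild type 2 in place of the LPS array 1 (Itgav) was 4-fold lower. Itgal 1425367_at lies at 4.02-fold, next to the rule. The causes were not tested. Signal near the floor limits Itgb3 and the dimmer probe sets.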
